A study of Caenorhabditis elegans with 13 samples.

Results

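Adult day 8 of Caenorhabditis elegans is described here against the adult days before and after it, 6 and 10, by the microRNAs (miRNAs) counted in each. Its 3 libraries, and the 6 of days 6 and 10, are 9 of the 13 in the series. They were chosen by the age and diet in the labels. All are small RNA libraries from the whole body of N2, the standard laboratory strain, with 1 library for each diet and day. The diets were ad libitum feeding (AL) and 2 regimens, CR and IF, that carry no further name. No label describes those protocols, the bacteria, the temperature or the number of worms, or says whether libraries came from separate cultures. The p-values below therefore measure only the spread between these libraries. Of 434 mature miRNAs, 218 had 10 or more reads in at least 3 of the 9 libraries and were tested. At the edge of that filter, 5 miRNAs had a third-highest count of 10 reads and were kept, and 5 had 9 reads and were left out. Values for a day are given in the order AL, CR, IF. Levels are CPM, counts scaled to a common library size by edgeR's trimmed mean of M values (TMM).

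A miRNA hairpin is processed by Drosha and Dicer into a short duplex, of which 1 strand usually enters an Argonaute protein and lowers the output of mRNAs matching its seed. The strand from the left side of the hairpin is named 5p and that from the right side 3p. Members of a family share the seed. In C. elegans, lin-4 and the let-7 family time larval development, the mir-35 and mir-51 families are needed by embryos, miR-1 acts in muscle, and lin-4 and mir-71 are known to lengthen adult life.

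The day 8 libraries held 4430180, 2882741 and 4128030 reads, and the 6 of days 6 and 10 held 3174231 to 4872861. A floor of 3 reads was worth 0.481 to 1.44 CPM, and no share of reads had a 95% Wilson interval wider than 0.113 percentage points. Both cover counting error only. Libraries of the same day were alike whatever the diet, with a mean absolute log2 difference over the tested miRNAs of 0.41 to 0.94. Within a diet that difference was 1.62 to 1.70 between days 8 and 6 and 1.51 to 1.61 between days 8 and 10, against 1.17 to 1.36 between days 6 and 10. Day 8 thus stood farther from both neighbours than these stood from each other. Within each diet, fewer miRNAs made up 90% of the reads on day 8. These numbered 12, 14 and 16, against 22, 23 and 24 on day 6 and 14, 17 and 19 on day 10. In AL and CR the 10 highest miRNAs also held their largest share on day 8. In IF they held 78.9% on day 8, against 79.8% on day 10. The TMM factors were lowest on day 8, at 0.473, 0.724 and 0.678, against 0.876 to 1.64 on days 6 and 10. No label says whether libraries of a day were prepared or sequenced together, so age and a shared preparation cannot be told apart. In whole worms, fewer cells of a type and less RNA per cell cannot be told apart either.

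On day 8, 131 of the 218 miRNAs (60.1%) differed from the mean of days 6 and 10 at an adjusted p under 0.05 by edgeR's quasi-likelihood test with diet as a block, and these are referred to below as called. The 72 higher ones (33.0%) and the 59 lower ones (27.1%) include 32 that rose and 27 that fell by 4-fold or more. By 16-fold or more, 11 rose and 2 fell. Of the 46 miRNAs with a mean of 1000 CPM or more, 21 were higher, 15 lower and 10 not called, so the change reached the abundant miRNAs. Against day 6 alone 133 miRNAs were called (61.0%), and against day 10 alone 120 (55.0%). Both single days gave a call in the same direction for 82 miRNAs (37.6%) and in opposite directions for 8. Days 10 and 6 differed from each other in 91 miRNAs (41.7%).

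How many miRNAs rose depended on the scaling. The median log2 fold change of all tested miRNAs was 0.15 with TMM. It lay 0.18 lower with DESeq2's size factors, 0.26 lower with the upper quartile, 0.93 lower with total counts without the 3 highest miRNAs, and 1.12 lower with total counts. The calls split into 62 higher and 71 lower with DESeq2's size factors, 60 and 73 with the upper quartile, 38 and 104 without the 3 highest miRNAs, and 34 and 115 with total counts. Under all 5 scalings, 34 miRNAs (15.6%) were called higher and 59 (27.1%) lower. Each of the 59 falls was thus called under every one of them, whereas 38 of the 72 rises were not called with total counts and 15 of those had a value below 0 there. Apart from miR-243-5p of the last section, 12 of the rises named below were not called with total counts (log2 fold changes -0.31 to 0.56). They were miR-73-3p (0.56), miR-61-3p (0.53), miR-50-5p (0.42), miR-71-5p (0.37), miR-34-5p (0.32), miR-65-5p (0.16), miR-238-3p (0.09), miR-229-5p (0.10), miR-64-5p (0.31), miR-237-5p (-0.0014), miR-786-3p (-0.12) and miR-240-5p (-0.31). Of the 14 miRNAs named below as not called with TMM, 10 were called lower with total counts and 0 higher.

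**Figure D1:**
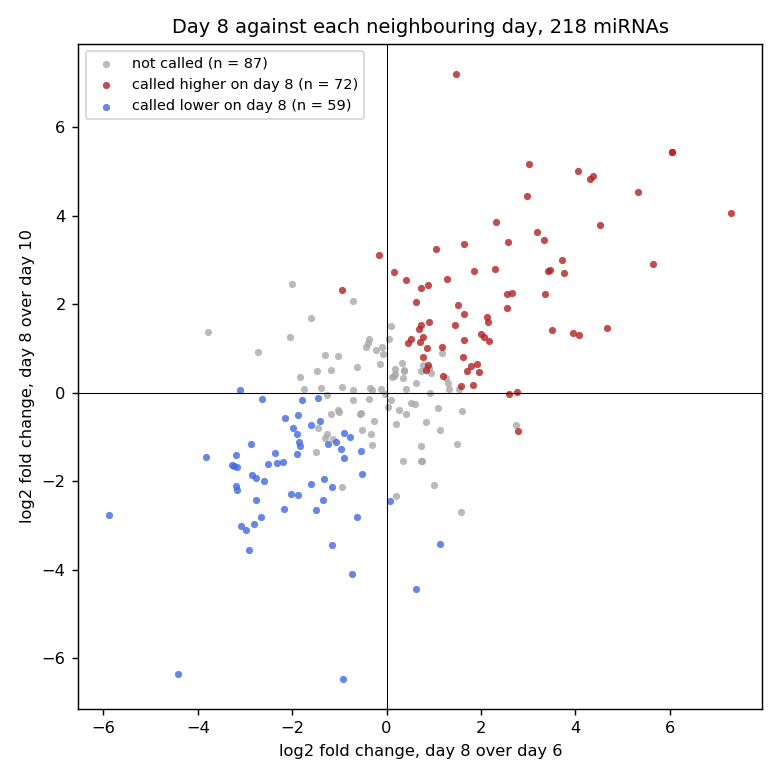
Log2 fold change of day 8 over day 6 (x axis) and over day 10 (y axis) for each of the 218 tested miRNAs with TMM scaling; red points were called higher and blue points lower on day 8 than the mean of both days, and grey points were not called. Most of the 72 red points lie above and right of both zero lines and most of the 59 blue points below and left of them; the axes share the day 8 libraries.

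A stricter description asks for the same side of both neighbours in every diet. By that rule 59 miRNAs (27.1%) peaked on day 8 and 50 (22.9%) dipped. Among these, 56 peaks (25.7%) and 43 dips (19.7%) were also called in the same direction. The step was 1 log2 unit or more from both neighbours in all 3 diets for 28 peaks (12.8%) and 14 dips (6.42%). Day 4 entered neither the contrast nor its fit, although the TMM factors were taken over all 13 libraries. It was passed as well by 53 miRNAs above days 4, 6 and 10 in each diet (24.3%) and by 41 below them (18.8%). The 3 day 8 values did not overlap with the 6 of days 6 and 10 for 47 miRNAs on the high side (21.6%) and 38 on the low side (17.4%). They lay above all 10 other libraries of the series for 43 (19.7%) and below all 10 for 24 (11.0%).

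The largest rise among the named miRNAs was that of miR-44-3p, of the mir-44 family. The 4 tested members, miR-44-3p, miR-45-3p, miR-61-3p and miR-247-3p, were all called higher, beside 33.0% higher over all tested. Their median log2 fold change was 5.20, against 0.15 over all tested, but miR-44-3p and miR-45-3p share their reads. With those reads counted once, the middle value is that of miR-247-3p, 4.64. miR-44-3p stood at 67394, 67914 and 121301 CPM on day 8, against 423, 1667 and 1832 CPM on day 6 and 2635, 1274 and 1581 CPM on day 10. Its day 8 libraries lay above all 10 others (log2 fold change 5.75 ± 0.45 SE, adjusted p = 3.16e-08; edgeR quasi-likelihood, as for all adjusted p below). The entry of miR-45-3p held the same number of reads in 6 of the 9 libraries and differed by at most 1 read in the others. Both entries thus report the same reads and are 1 observation. The counts of miRNAs and the library totals given here nevertheless include both. With miR-45-3p left out, 71 miRNAs were called higher. Their hairpins lie apart, mir-44 at chromosome II, 11890023 to 11890118, plus strand, and mir-45 at chromosome II, 11880944 to 11881039, minus strand (WBcel235), and no protein-coding gene contains either. miR-247-3p was scarce, with 11.9, 19.6 and 69.3 CPM on day 8, against 0.410, 2.56 and 1.14 CPM on day 6 and 0.469, 0.906 and 1.68 CPM on day 10 (log2 fold change 4.64 ± 0.45 SE, adjusted p = 2.70e-07). Its libraries of days 6 and 10 held 2 to 16 reads, against 25, 41 and 194 on day 8. miR-61-3p, known from the vulva as a repressor of vav-1 downstream of LIN-12, had 7049.7, 6567 and 7532 CPM on day 8, against 2778, 3753 and 5345 CPM on day 6 and 1016, 1448 and 1545 CPM on day 10 (log2 fold change 1.66 ± 0.28 SE, adjusted p = 1.01e-04). Its day 8 range was narrow and did not overlap with the other days, but with total counts its value was 0.53 and it was not called. That separation rests on TMM, as its share of all reads on day 8 was below that of day 6 in each diet.

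The mir-50 family, related to miR-190 of other animals, rose with all 3 members (median 4.54), beside 33.0% called higher and a median of 0.15 over all tested. miR-62, from an intron of ugt-50 on the same strand (chromosome X, 12692608 to 12692665, plus strand), had 12011, 17246 and 27690 CPM on day 8, against 102, 133 and 91.9 CPM on day 6 and 661, 934 and 1919.9 CPM on day 10 (log2 fold change 5.68 ± 0.35 SE, adjusted p = 3.03e-09). Day 10 was already well above day 6 in each diet, and day 8 exceeded both. For miR-90-3p the levels were 25465, 23775 and 26462 CPM on day 8, against 1066, 1744 and 1734 CPM on day 6 and 1054, 789 and 517 CPM on day 10 (log2 fold change 4.54 ± 0.34 SE, adjusted p = 1.34e-08), with the 3 diets within a narrow band on day 8. Its hairpin lies in an intron of K01F9.2 on the same strand. The other strand, miR-90-5p, was scarce but rose as well, with 72.9, 94.3 and 74.7 CPM on day 8, against 1.44, 2.404 and 2.097 CPM on day 6 and 3.75, 3.62 and 2.98 CPM on day 10 (log2 fold change 4.93 ± 0.32 SE, adjusted p = 3.03e-09). The third member, miR-50-5p, in an intron of the talin gene tln-1, had 3620.2, 2532 and 3231 CPM on day 8, against 1549.8, 1780.4 and 2399.7 CPM on day 6 and 568, 581 and 669 CPM on day 10 (log2 fold change 1.55 ± 0.27 SE, adjusted p = 1.03e-04). That rise was called against day 10 (adjusted p = 1.70e-05) and not against day 6 (adjusted p = 0.0607), and with total counts the value was 0.42 and not called.

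**Figure D2:**
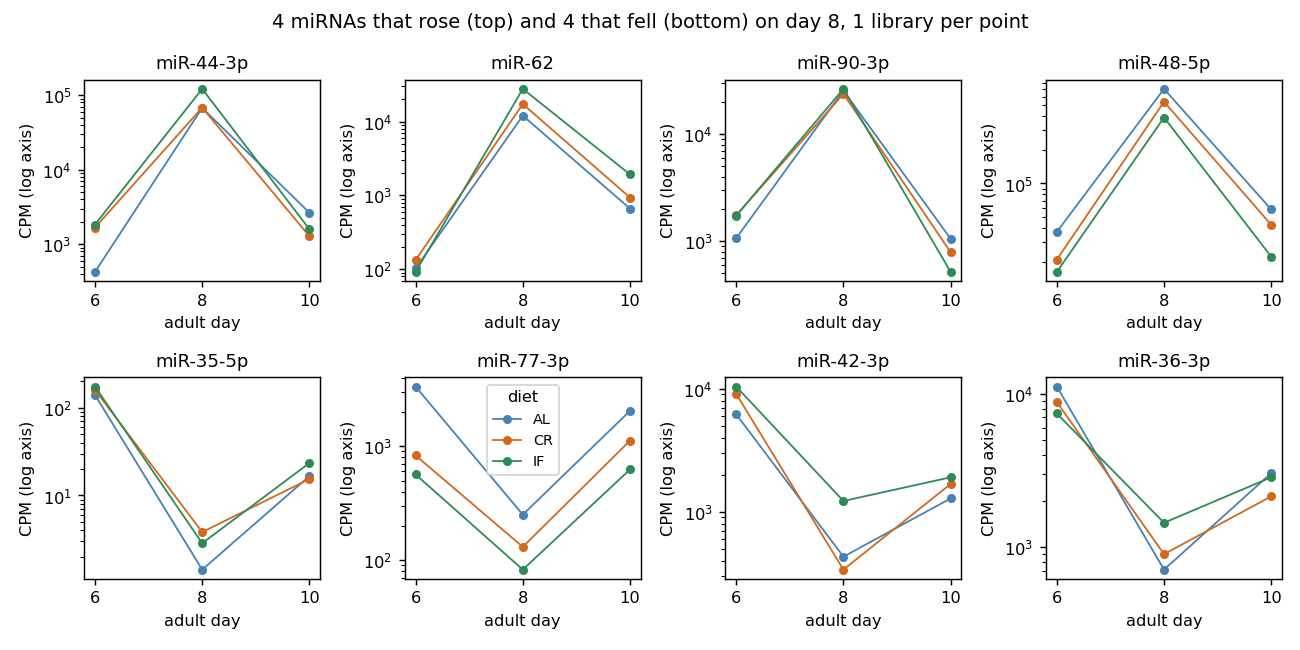
CPM with TMM scaling (log axis) on adult days 6, 8 and 10 for 4 miRNAs that rose on day 8 (top) and 4 that fell (bottom); lines join the libraries of AL (blue), CR (orange) and IF (green), 1 library per point. In each upper panel the 3 day 8 points lie above all points of days 6 and 10, as with miR-62 at 12011, 17246 and 27690 CPM, and in each lower panel they lie below them.

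Among the timing miRNAs, 1 of the 4 let-7 family members was called. miR-48-5p, which with its relatives represses hbl-1 in larvae, stood at 703606, 539646 and 389911 CPM on day 8, against 36786, 20785 and 16129 CPM on day 6 and 58466, 42582 and 22063 CPM on day 10 (log2 fold change 4.16 ± 0.32 SE, adjusted p = 1.73e-08). These CPM exceed its share of raw reads, since TMM gives the day 8 libraries a smaller effective size. Under the 5 scalings its value ranged from 3.04 to 4.16. let-7-5p itself did not pass the test at 2305, 1222 and 1186 CPM on day 8, against 2617, 1345 and 1259 CPM on day 6 and 1525, 1165 and 455 CPM on day 10 (log2 fold change 0.26 ± 0.29 SE, adjusted p = 0.459). miR-84-5p had 66129, 59791 and 38783 CPM on day 8, against 11076, 29626 and 24467 CPM on day 6 and 63756, 67875 and 28524 CPM on day 10 (log2 fold change 0.70 ± 0.37 SE, adjusted p = 0.109), and miR-241-5p, encoded next to mir-48 on chromosome V, had 743, 615 and 669.9 CPM on day 8, against 707, 448 and 999.5 CPM on day 6 and 475, 423 and 118 CPM on day 10 (log2 fold change 0.47 ± 0.37 SE, adjusted p = 0.29). In these the day 8 range overlapped with the other days, and the sign turned negative with total counts, where let-7-5p was called lower (-0.86, adjusted p = 0.0168).

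lin-4-5p, the founding miRNA and a repressor of lin-14 and lin-28, was called higher with 1169, 1367 and 1262 CPM on day 8, against 397, 239 and 173 CPM on day 6 and 101, 112 and 59.6 CPM on day 10 (log2 fold change 3.09 ± 0.28 SE, adjusted p = 1.19e-07). Day 8 values lay above all 10 other libraries, while day 10 was the lowest of the 3 days in every diet. miR-237-5p, its family member, had 659, 482 and 444 CPM on day 8, against 206, 245 and 233 CPM on day 6 and 322, 225 and 220.4 CPM on day 10 (log2 fold change 1.11 ± 0.26 SE, adjusted p = 0.00145), and its rise vanished with total counts (log2 fold change -0.00). Of the 4 more divergent let-7 relatives, miR-795-5p rose and miR-793 and miR-794-5p fell. miR-795-5p had 213, 215 and 247 CPM on day 8, against 13.3, 17.1 and 20.01 CPM on day 6 and 30.2, 38.7 and 33.7 CPM on day 10 (log2 fold change 3.24 ± 0.26 SE, adjusted p = 2.69e-08). miR-793 had 24.8, 13.4 and 18.6 CPM on day 8, against 68.3, 58.8 and 45.9 CPM on day 6 and 32.1, 34.2 and 26.8 CPM on day 10 (log2 fold change -1.17 ± 0.32 SE, adjusted p = 0.00471), and the scarce miR-794-5p had 1.43, 0.479 and 3.57 CPM on day 8, against 13.1, 15.9 and 11.8 CPM on day 6 and 6.09, 7.47 and 7.07 CPM on day 10 (log2 fold change -2.35 ± 0.52 SE, adjusted p = 0.00107).

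Single miRNAs outside these families rose as well. miR-1-3p, the muscle miRNA, had 95033, 86305 and 58074 CPM on day 8, against 7934, 6771 and 7467 CPM on day 6 and 4692, 22473 and 2292 CPM on day 10 (log2 fold change 3.40 ± 0.45 SE, adjusted p = 1.21e-05). The CR library of day 10 was the highest of the other days but still below every day 8 library. miR-236-3p, a relative of the miR-8 and miR-200 miRNAs of flies and mammals, had 4989, 8129 and 3258 CPM on day 8, against 2344, 379.9 and 222 CPM on day 6 and 181, 155 and 115 CPM on day 10 (log2 fold change 4.10 ± 0.45 SE, adjusted p = 1.70e-06). Its AL library of day 6 was high for that day, and the AL step up to day 8 was the smallest of the 3 diets. miR-252-5p had 159, 129 and 99.4 CPM on day 8, against 33.03, 16.2 and 18.3 CPM on day 6 and 47.1, 33.97 and 23.6 CPM on day 10 (log2 fold change 2.24 ± 0.27 SE, adjusted p = 2.40e-06), above all 10 other libraries. The remaining large rises were of scarcer strands. miR-54-5p had 179, 97.7 and 201 CPM on day 8, against 15.6, 10.7 and 9.15 CPM on day 6 and 22.7, 15.6 and 20.3 CPM on day 10 (log2 fold change 3.35 ± 0.28 SE, adjusted p = 4.40e-08), and miR-64-3p had 36.7, 111 and 36.8 CPM on day 8, against 6.36, 10.6 and 4.57 CPM on day 6 and 1.17, 1.81 and 4.28 CPM on day 10 (log2 fold change 3.72 ± 0.41 SE, adjusted p = 1.11e-06). Neither overlapped with the other days.

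The mir-72 family, related to miR-31, was called higher with all 3 members (median 2.47), beside 33.0% called higher and a median of 0.15 over all tested. miR-72-5p had 22387, 16576 and 46160 CPM on day 8, against 1499, 1504 and 1674 CPM on day 6 and 14199, 8512 and 9904 CPM on day 10 (log2 fold change 2.69 ± 0.33 SE, adjusted p = 3.77e-06). Day 10 was several times above day 6, and with TMM day 8 was above both. As a share of all reads, day 8 stayed above both in CR and IF, but in AL it was 1.06%, against 1.24% on day 10. miR-74-3p had 805, 346 and 693 CPM on day 8, against 50.5, 41.3 and 61.8 CPM on day 6 and 291, 155 and 222 CPM on day 10 (log2 fold change 2.47 ± 0.26 SE, adjusted p = 6.75e-07), and miR-73-3p, encoded near it on chromosome X, had 6297, 3449.6 and 8201 CPM on day 8, against 922, 1033 and 2000.0 CPM on day 6 and 2869.6, 2159.8 and 2428 CPM on day 10 (log2 fold change 1.67 ± 0.30 SE, adjusted p = 1.48e-04). With total counts miR-73-3p was at 0.56 and not called. All 4 members of the mir-64 family, which sit together in an intron of gcn-1 on chromosome III, were called higher (median 1.34), beside the same 33.0% over all tested. Only miR-66-5p stayed called under each of the 5 scalings. miR-66-5p had 104052, 106093 and 100190 CPM on day 8, against 32830, 25657 and 15554 CPM on day 6 and 45488, 37509 and 23837 CPM on day 10 (log2 fold change 1.88 ± 0.31 SE, adjusted p = 6.89e-05), above all other libraries of the series. That place of miR-66-5p above all others rests on TMM. Its share of all reads in AL was 4.93% for day 8, below the 5.04% of day 6. In CR and IF the day 8 share stayed above both neighbouring days. In the other members days 8 and 10 overlapped. miR-64-5p, for one, had 63942, 17673 and 29412 CPM on day 8, against 2652, 5493 and 4901 CPM on day 6 and 74517, 28512 and 13094 CPM on day 10 (adjusted p = 6.61e-04 against day 6 and 0.969 against day 10), and miR-65-5p and miR-229-5p did not pass the test against day 10 either. Against both days, miR-64-5p was not called without the AL (adjusted p = 0.155) or IF (adjusted p = 0.0768) library of day 8, and neither was miR-65-5p (adjusted p = 0.0709 and 0.213).

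The mir-35 family, made in the germ line and needed by embryos, fell in 5 of its 8 members (median -1.59, against 27.1% called lower and a median of 0.15 over all tested), with 2 not called and 1 higher. The summed level of the 8 strands was 41210, 46037 and 94368 CPM on day 8, against 99835, 167778 and 191450 CPM on day 6 and 73631, 84810 and 108767 CPM on day 10. It overlapped with day 10 through the IF library. miR-42-3p had 432, 339 and 1223 CPM on day 8, against 6190.0, 9065 and 10379 CPM on day 6 and 1284, 1683 and 1905 CPM on day 10 (log2 fold change -2.64 ± 0.38 SE, adjusted p = 1.85e-05). miR-40-3p had 673, 394 and 1091 CPM on day 8, against 6320.0, 5449 and 6580.3 CPM on day 6 and 2166, 2131 and 2184 CPM on day 10 (log2 fold change -2.42 ± 0.35 SE, adjusted p = 1.94e-05), and miR-36-3p had 711, 897 and 1438 CPM on day 8, against 11131, 8829 and 7429 CPM on day 6 and 3034, 2139 and 2850.1 CPM on day 10 (log2 fold change -2.30 ± 0.36 SE, adjusted p = 4.39e-05). In each, every day 8 library was below all other libraries of the series. The most abundant member, miR-35-3p, had 24390, 24241 and 54879 CPM on day 8, against 38602, 73401 and 96572 CPM on day 6 and 40179, 37227 and 48773 CPM on day 10 (log2 fold change -0.72 ± 0.34 SE, adjusted p = 0.0826). It did not pass the test with TMM but did with each of the other 4 scalings, where 7 members were called lower.

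The exception was miR-41-5p, with 2473, 561 and 920.1 CPM on day 8, against 37.1, 15.2 and 19.1 CPM on day 6 and 196, 114 and 134 CPM on day 10 (log2 fold change 4.28 ± 0.28 SE, adjusted p = 3.34e-09), above all other libraries. It stands for its hairpin because it had more reads than miR-41-3p over the 9 libraries, although the seed shared by the family lies in the 3p strands. miR-41-3p itself had 86.8, 141 and 128 CPM on day 8, against 236, 251 and 176 CPM on day 6 and 373, 276 and 334 CPM on day 10 (log2 fold change -1.19 ± 0.30 SE, adjusted p = 0.00261), a fall like that of its relatives. The passenger strand miR-35-5p came to 1.43, 3.83 and 2.86 CPM on day 8, against 139.9, 159 and 174 CPM on day 6 and 16.6, 15.4 and 23.5 CPM on day 10 (log2 fold change -4.32 ± 0.41 SE, adjusted p = 1.72e-07). Those day 8 values rest on 3 to 8 reads per library.

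The mir-51 family, widely expressed and required in embryos, fell in 5 of 6 members (median -1.23), beside 27.1% called lower and a median of 0.15 over all tested. Under each of the 5 scalings the same split of 5 lower and 1 higher was found. The riser was miR-51-5p, with 3240.2, 3328 and 11978 CPM on day 8, against 750.5, 1120.2 and 1523 CPM on day 6 and 539.9, 964 and 776 CPM on day 10 (log2 fold change 2.55 ± 0.33 SE, adjusted p = 5.78e-06). Its highest value was that of IF on day 8. miR-52-5p, the most abundant of those that fell, had 2194, 2798 and 7104 CPM on day 8, against 10949, 13781 and 14362 CPM on day 6 and 8698, 5607 and 9677 CPM on day 10 (log2 fold change -1.49 ± 0.37 SE, adjusted p = 0.00246), with the IF library of day 8 within the range of day 10. The falls of miR-54-3p, miR-55-3p and miR-56-3p, which share a cluster on chromosome X, were called against day 6 (adjusted p = 3.75e-04, 0.00128 and 1.14e-04) and not against day 10 (adjusted p = 0.0734, 0.751 and 0.182). The fall of miR-55-3p was not called without the AL library of day 8 (adjusted p = 0.172), the CR library of day 8 (adjusted p = 0.0987) or the CR library of day 10 (adjusted p = 0.0655).

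The mir-2 family, related to miR-2 of Drosophila, fell in all 4 members (median -2.08), beside 27.1% called lower and a median of 0.15 over all tested. miR-250-3p had 895, 806 and 1026 CPM on day 8, against 3053, 4060.2 and 2948 CPM on day 6 and 4235, 4979 and 4409 CPM on day 10 (log2 fold change -2.09 ± 0.31 SE, adjusted p = 3.06e-05), and miR-43-3p had 61.98, 89.6 and 153 CPM on day 8, against 230.4, 241 and 176 CPM on day 6 and 1154, 802 and 1249 CPM on day 10 (log2 fold change -2.30 ± 0.35 SE, adjusted p = 3.21e-05). Day 10 was the highest of the 3 days for both, and day 8 the lowest. miR-2-3p changed least, with 177, 192 and 209.8 CPM on day 8, against 241, 395 and 217 CPM on day 6 and 567, 414 and 463 CPM on day 10 (log2 fold change -0.93 ± 0.29 SE, adjusted p = 0.0122), and was not called without the AL (adjusted p = 0.0675) or CR (adjusted p = 0.0777) library of day 8. The scarce miR-797-5p dipped below day 6 in CR and IF but not in AL. The mir-87 family fell in both tested members, beside the same 27.1% lower over all tested. miR-87-3p had 199.8, 229 and 169 CPM on day 8, against 1488, 1761 and 2305 CPM on day 6 and 1108, 432 and 438 CPM on day 10 (log2 fold change -2.44 ± 0.37 SE, adjusted p = 3.54e-05), and miR-233-3p had 92.5, 46.9 and 138 CPM on day 8, against 389.6, 396 and 894 CPM on day 6 and 364, 350.3 and 269 CPM on day 10 (log2 fold change -2.29 ± 0.36 SE, adjusted p = 4.83e-05). No day 8 library of either reached the lowest library of days 6 and 10. The mir-75 and mir-232 families also fell in both members each by the arm with more reads, at low levels of at most 49.3 CPM on day 8. For mir-75 that arm was miR-75-5p, and its other strand, miR-75-3p, was not called (log2 fold change -0.74). The other strands of mir-79 and mir-232 were called lower.

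Further dips included miR-77-3p and miR-248, which belong to no list. miR-77-3p had 251, 131 and 82.6 CPM on day 8, against 3335, 829.9 and 565 CPM on day 6 and 2044, 1120.1 and 626 CPM on day 10 (log2 fold change -3.05 ± 0.34 SE, adjusted p = 1.11e-06). The AL library was the highest of each day, and the dip was seen in every diet. miR-248 had 59.1, 37.4 and 36.8 CPM on day 8, against 387, 185 and 330.1 CPM on day 6 and 375, 215 and 145 CPM on day 10 (log2 fold change -2.59 ± 0.33 SE, adjusted p = 5.06e-06), below all other libraries of the series. Among scarce miRNAs, miR-229-3p had 6.198, 3.83 and 5.004 CPM on day 8, against 54.2, 26.3 and 59.1 CPM on day 6 and 30.7, 19.2 and 15.1 CPM on day 10 (log2 fold change -2.65 ± 0.41 SE, adjusted p = 3.84e-05), miR-51-3p had 4.29, 1.92 and 3.93 CPM on day 8, against 10.9, 42.3 and 30.3 CPM on day 6 and 47.1, 46.9 and 29.4 CPM on day 10 (log2 fold change -3.24 ± 0.52 SE, adjusted p = 5.54e-05), and miR-8198-3p had 2.38, 4.31 and 3.22 CPM on day 8, against 39.8, 22.6 and 35.8 CPM on day 6 and 11.2, 11.1 and 8.93 CPM on day 10 (log2 fold change -2.46 ± 0.43 SE, adjusted p = 1.29e-04). A cluster on the left of chromosome X held further dips of low level, and also rises. Of its 9 tested hairpins, 2 were called higher, 3 lower and the rest not called. Over all tested miRNAs 33.0% were called higher and 27.1% lower. miR-4923a had 0, 1 and 3 reads on day 8, against 7, 93 and 119 on day 6 and 62, 188 and 342 on day 10, so no fold is given although it was called lower (adjusted p = 2.47e-06). Its neighbours miR-4923b and miR-4810a were called lower as well. miR-4923b had 1.43, 0.958 and 7.51 CPM on day 8, against 7.796, 18.3 and 59.5 CPM on day 6 and 15.00, 29.2 and 21.8 CPM on day 10, and miR-4810a had 0.954, 0.479 and 4.65 CPM on day 8, against 5.74, 14.7 and 20.97 CPM on day 6 and 2.11, 36.9 and 18.8 CPM on day 10. miR-4810b-3p of the same cluster rose, with 20.5, 22.03 and 106 CPM on day 8, against 1.23, 4.81 and 8.196 CPM on day 6 and 0.937, 12.5 and 9.49 CPM on day 10 (log2 fold change 3.09 ± 0.45 SE, adjusted p = 3.02e-05).

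Several of the most abundant miRNAs were not called with TMM. miR-58a-3p, the bantam-like miRNA, had 507638, 143742 and 170347 CPM on day 8, against 204377, 132811 and 84238 CPM on day 6 and 553717, 335260 and 278089 CPM on day 10 (log2 fold change 0.09 ± 0.34 SE, adjusted p = 0.822). With total counts it was called lower (-1.06, adjusted p = 0.00309), and likewise without the 3 highest miRNAs (-0.87, adjusted p = 0.0108). Its AL library was far above the other diets on day 8, and all 3 diets overlapped with the other days. miR-80-3p of the same family had 125612, 32257 and 33091 CPM on day 8, against 80780, 62332 and 58894 CPM on day 6 and 34608, 19520 and 17953 CPM on day 10 (log2 fold change 0.42 ± 0.34 SE, adjusted p = 0.299), whereas miR-81-3p was called lower with 2022, 1005 and 1518 CPM on day 8, against 7571, 5318 and 3473 CPM on day 6 and 4151, 3286 and 2838 CPM on day 10 (log2 fold change -1.51 ± 0.32 SE, adjusted p = 7.74e-04). The fall of miR-82-3p was borderline (log2 fold change -0.90 ± 0.37 SE, adjusted p = 0.0446), and its AL level on day 8, 7372 CPM, lay between 6129 CPM on day 6 and 8302 CPM on day 10. It was lost on leaving out the CR library of day 8 (adjusted p = 0.316), and also without the IF library of day 6, 8 or 10 (adjusted p = 0.067, 0.15 and 0.0602) or the CR library of day 6 (adjusted p = 0.104). miR-228-5p, enriched in glia, had 52122, 44651 and 63182 CPM on day 8, against 17192, 51039 and 59985 CPM on day 6 and 75577, 82104 and 61680 CPM on day 10 (log2 fold change -0.03 ± 0.37 SE, adjusted p = 0.943). It too was called lower with total counts (-1.13, adjusted p = 0.00343) and without the 3 highest miRNAs (-0.93, adjusted p = 0.0081).

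Of the 10 miRNAs with reported effects on lifespan, 4 were called higher on day 8 and 2 lower, near the 33.0% higher and 27.1% lower over all tested miRNAs. Beside lin-4-5p, the rises were of miR-71-5p, miR-34-5p and miR-238-3p. miR-71-5p, which promotes longevity from neurons, had 14918, 6712 and 7894 CPM on day 8, against 12047, 4446 and 6133 CPM on day 6 and 3093, 1403 and 861 CPM on day 10 (log2 fold change 1.48 ± 0.30 SE, adjusted p = 5.04e-04). miR-34-5p, a stress-responsive miRNA, had 718, 1115 and 1916 CPM on day 8, against 1193, 992 and 992 CPM on day 6 and 200.4, 113 and 247 CPM on day 10 (log2 fold change 1.44 ± 0.30 SE, adjusted p = 7.21e-04). Both were called against day 10 (adjusted p = 3.00e-05 and 1.70e-05) and not against day 6 (adjusted p = 0.323 and 0.735). With TMM miR-71-5p was above day 6 in each diet, whereas miR-34-5p was below day 6 in AL. As a share of all reads the direction for miR-71-5p turned, with 0.706%, 0.486% and 0.535% on day 8, against 1.85%, 0.694% and 1.005% on day 6. miR-238-3p had 45413, 22201 and 30483 CPM on day 8, against 10378, 7722 and 6995 CPM on day 6 and 28741, 31492 and 11984 CPM on day 10 (log2 fold change 1.22 ± 0.34 SE, adjusted p = 0.00474), and was called against day 6 but not against day 10. Without the IF library of day 8 it was not called (adjusted p = 0.0566). With total counts lin-4-5p alone of these 4 stayed called higher, and 6 of the 10 were called lower. miR-246-3p fell, with 3136, 2039 and 3041 CPM on day 8, against 5233, 9323 and 10864 CPM on day 6 and 11192, 13414 and 9577 CPM on day 10 (log2 fold change -1.83 ± 0.37 SE, adjusted p = 4.52e-04). miR-239a-5p, whose loss is reported to lengthen life, had 1694, 2184 and 2912 CPM on day 8, against 26101, 16985 and 14744 CPM on day 6 and 1778, 2242 and 2491 CPM on day 10 (log2 fold change -1.53 ± 0.36 SE, adjusted p = 0.00151), with days 8 and 10 overlapping and day 6 above both.

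Of 8 strands that mark tissues, 3 were called higher and 1 lower, against 33.0% higher and 27.1% lower over all tested miRNAs. Beside miR-1-3p of muscle, these were intestinal. miR-240-5p had 2333, 2622 and 2453 CPM on day 8, against 493, 1468 and 1413 CPM on day 6 and 2229, 1647 and 1729 CPM on day 10 (log2 fold change 0.78 ± 0.32 SE, adjusted p = 0.0446), and miR-786-3p, which acts in the intestinal defecation rhythm, had 143, 327 and 234 CPM on day 8, against 90.9, 54.00 and 47.3 CPM on day 6 and 168, 251 and 195 CPM on day 10 (log2 fold change 1.01 ± 0.31 SE, adjusted p = 0.01). miR-240-5p was not called when any 1 of 6 libraries was left out, the 3 of day 8, the AL library of day 6 and the CR and IF libraries of day 10 (adjusted p = 0.0677 to 0.227), and miR-786-3p not without the CR (adjusted p = 0.107) or IF (adjusted p = 0.0887) library of day 8. Both values lay below 0 with total counts, where 1 of the 8 strands was called higher and 3 lower. The intestinal miR-60-3p was called lower with 102, 89.1 and 60.1 CPM on day 8, against 218, 148 and 59.8 CPM on day 6 and 769, 688 and 365 CPM on day 10 (log2 fold change -1.72 ± 0.30 SE, adjusted p = 1.11e-04), though not below day 6 in IF, so the 3 intestinal markers did not move together. The neuronal markers miR-791-3p, miR-124-5p and lsy-6-3p were not called and stood at or below 24.3 CPM on day 8. The part of a change in tissue makeup in the results above was not tested.

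The strands of 1 hairpin moved in the same direction or in opposite ones. Both arms were tested for 63 hairpins and both were called for 24, in opposite directions for 13 and in the same direction for 11. These counts stand beside 33.0% higher and 27.1% lower over all tested miRNAs, and nothing particular to hairpins is read from them. In 11 of the 13 the 5p strand was higher and the 3p strand lower on day 8, and in 2, mir-230 and mir-239a, it was the reverse. With total counts, strands were called in opposite directions for 15 hairpins, 9 of them with 5p higher, and in the same direction for 17. Between days 10 and 6 both arms were called in opposite directions for 8 hairpins and in the same direction for 7. mir-41 shows the pattern at a level well above the floor, with miR-41-5p at 4.28 and miR-41-3p at -1.19 on the log2 scale. In mir-51, miR-51-5p rose by 2.55 and miR-51-3p fell by 3.24. In mir-54 the same held for miR-54-5p (3.35) and miR-54-3p (-1.39), and in mir-229 for miR-229-5p (1.20) and miR-229-3p (-2.65). In others the minor strand was near the floor, as for miR-48-3p, miR-43-5p, miR-40-5p and miR-60-5p, all under 10 CPM on average. The falls of miR-51-3p and miR-229-3p also rest on a few CPM per library on day 8, at the levels given above. Over all strands, beside 33.0% higher and 27.1% lower over all tested miRNAs, 37 of 93 tested 5p strands were higher (39.8%) and 17 lower (18.3%), with a median log2 fold change of 0.47. Of 109 tested 3p strands, 29 were higher (26.6%) and 35 lower (32.1%), with a median of -0.33. With total counts 18.3% of 5p strands were higher and 44.1% lower, against 14.7% higher and 60.6% lower for 3p strands. For day 10 against day 6, 19 of the 5p strands were higher and 19 lower, and 19 of the 3p strands were higher and 27 lower.

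**Figure D3:**
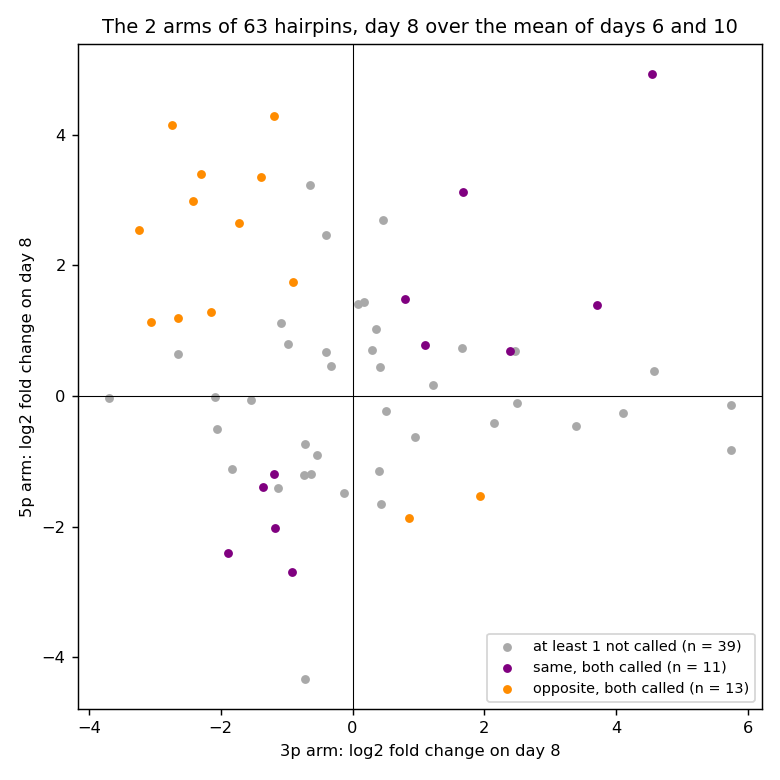
Log2 fold change on day 8 over the mean of days 6 and 10 of the 5p strand (y axis) against that of the 3p strand (x axis) for 63 hairpins, TMM scaling; orange hairpins had both strands called in opposite directions (13), purple in the same direction (11), and grey had at least 1 strand not called (39). Of the orange points, 11 lie in the upper left, where 5p rose and 3p fell, and 2 in the lower right; many minor strands are scarce.

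Hairpins that lie close together moved both together and apart. Grouped by a distance of at most 10000 bp on the same strand, 19 clusters held 2 or more tested hairpins. By the arm with more reads, members were called in both directions in 9 clusters, in 1 direction in 8, and not at all in 2. With total counts these clusters numbered 8, 9 and 2. With 60.1% of all tested miRNAs called, nothing particular to clusters is read from these counts. On chromosome II, 11889811 to 11890118 (plus strand, WBcel235), miR-42-3p and miR-43-3p fell while the entry of miR-44-3p, the third hairpin of that stretch, rose. That entry shares its reads with miR-45-3p, whose hairpin lies outside the stretch, so its rise cannot be assigned to mir-44. The other strand, miR-44-5p, was not called (log2 fold change -0.83). Whether this stretch, counted above as called in both directions, truly split is therefore not settled. On chromosome V, 11769917 to 11770156 (minus strand), miR-61-3p was called higher with TMM, though not with total counts, and miR-250-3p fell. On chromosome X, 4756971 to 4757197 (plus strand), miR-247-3p rose and miR-797-5p fell. In each of these 3 clusters the riser is of the mir-44 family and at least 1 neighbour of the mir-2 family, though the riser of the first may come from mir-45. The mir-71 and mir-2 hairpins in an intron of ppfr-1 on chromosome I split likewise, with miR-71-5p higher and miR-2-3p lower. By the arm with more reads, clusters called in 1 direction included the gcn-1 intron, with its 4 rises, and the mir-54, mir-55 and mir-56 hairpins, with 3 falls. With total counts, miR-66-5p alone of those 4 rises was called. The other strands did not all follow. miR-54-5p was called higher (3.35) and miR-229-3p lower (-2.65), whereas miR-64-3p was called higher like its cluster.

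The day 8 difference mostly had the same sign in the 3 diets, with 1 library per diet and day. Its sign was the same in all diets for 164 of the 218 miRNAs and for 129 of the 131 called ones. The diets serve as the replicates of the test, so agreement among called miRNAs is largely built into the call. Across miRNAs, which are not independent replicates, the differences of AL and CR had a Pearson r of 0.868, those of AL and IF 0.906 and those of CR and IF 0.894, with no library shared between diets. Among called miRNAs the median range between diets was 0.96 log2 units. A test of unequal differences between diets, with 2 residual degrees of freedom, called 0 miRNAs (0.00%) with edgeR's quasi-likelihood test, where 5 had an unadjusted p under 0.05, and 0 with limma-voom, where 3 did. The 5 were miR-39-5p, miR-8202-5p, miR-1018, miR-49-3p and miR-4810b-3p, and the smallest adjusted p was 0.959. Of these, miR-49-3p had 345, 418 and 2032 CPM on day 8, against 136, 531 and 553 CPM on day 6 and 1345, 3636 and 5705 CPM on day 10. Day 8 was below day 10 in every diet, but above day 6 in AL and IF and below it in CR. miR-1018 had 71.5, 58.9 and 344 CPM on day 8, against 26.7, 219 and 249 CPM on day 6 and 75.9, 196 and 271 CPM on day 10, with CR the lowest diet on day 8 and AL the lowest on the other days. With so few residual degrees of freedom, a failure to pass does not show that diets were equal.

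**Figure D4:**
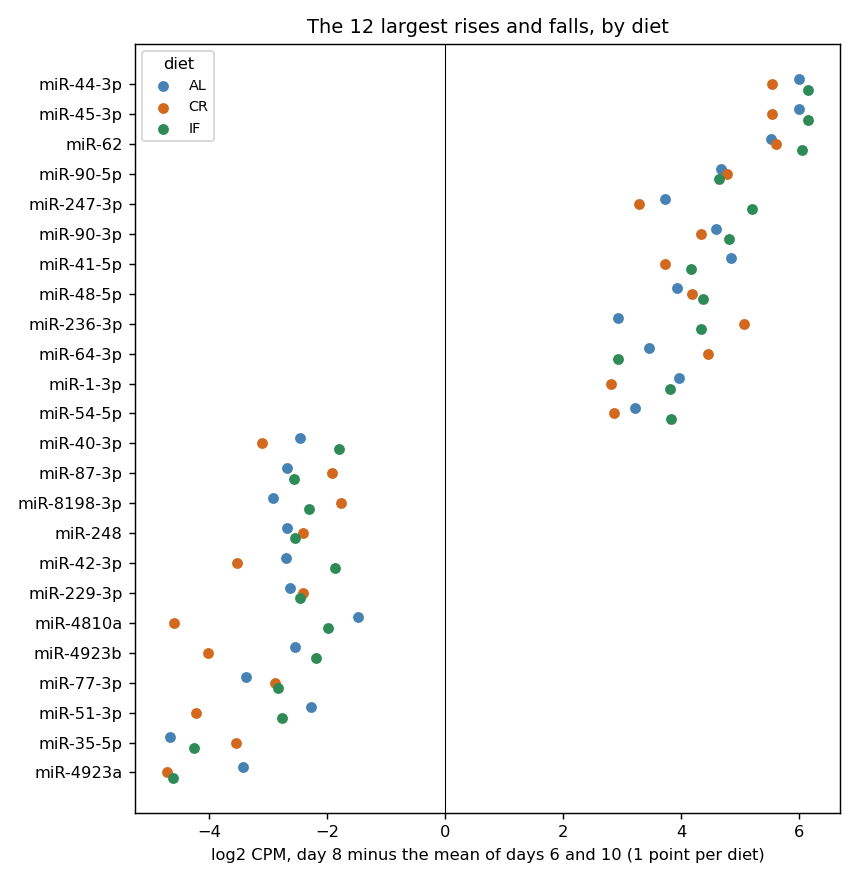
Log2 CPM (TMM scaling) of day 8 minus the mean of days 6 and 10 (x axis), 1 point per diet, AL blue, CR orange and IF green, for the 12 miRNAs with the largest rises (upper rows) and the 12 with the largest falls (lower rows) among those on the same side of both neighbours in every diet. By that choice, all 3 diets lie on the same side of 0 in each row. The entry of miR-45-3p has the reads of miR-44-3p.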

How the data were processed

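Per the file headers, the authors deposited read counts; these are whole numbers, 1 for each of 447 combinations of mature miRNA and hairpin. Per the labels' protocols, RNA was precipitated with alcohol, size-selected on a polyacrylamide gel and made into libraries with an Illumina small RNA kit, with no molecular identifiers mentioned. How reads were aligned and counted, against which miRNA database and build, is not given in the sources used here. Entries of 1 mature name were collapsed to the highest count, leaving 434. The labels gave each library's diet and day.

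Counts were fitted with edgeR 4.0.16 in R 4.3.3 (TMM factors over all 13 libraries on the 218 miRNAs with 10 or more reads in 3 of the 9 libraries; quasi-likelihood fit with the robust option; day and diet as factors), with the contrast of day 8 minus the mean of days 6 and 10. Tests are two-sided, adjusted by Benjamini-Hochberg over all tested miRNAs at 0.05, and each SE is the size of the log2 value over the root of its F statistic. Peaks and dips used log2 CPM with a prior count of 2. The fit was tested on simulated data.

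The text names, among miRNAs with a mean of 10 or more CPM, the 12 largest called rises and falls on the same side of both neighbours in every diet. It also names members of 21 lists, the 10 most abundant and the 5 of smallest p between diets. Not every list member is named, and those left out include calls in both directions. Members, lists and rule were chosen with earlier results of these data known. A list entry stands for the arm with more reads; mir-356 of the mir-87 list had no entry. Of 250 hairpins, 247 matched the WBcel235 annotation of Ensembl release 115 by name, and let-7 did not. Positions are 1-based, and hosts are protein-coding genes only. miRNA sequences were not used here. Alternatives were DESeq2 1.42.0, limma-voom (limma 3.58.1), 4 other scalings, 2 other filters, summed precursors, other fits, and each library or diet left out. Tables and plots were made in Python 3.11.15 (matplotlib 3.10.9, numpy 2.4.6, pandas 2.3.3, scipy 1.17.1).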

Additional observations from a re-analysis of the deposited data

How the results depend on the processing

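The count of 131 called miRNAs was 130 to 133 with DESeq2, limma-voom, no robust option, DESeq2's size factors, the upper quartile, summed precursors or miR-45-3p left out, 149 with total counts, 118 with no diet term, 110 on the 12 libraries of days 4 to 10, 152 of 361 with no filter and 101 of 136 with a filter of 100 reads. It was 109 to 138 with 1 library left out and 114 to 122 with 1 diet left out. Leaving out miR-45-3p and taking TMM factors over the 9 libraries were chosen after seeing the data, and the TMM factors over 9 libraries gave 131 as well. The 59 peaks numbered 26 with total counts, 30 with total counts without the 3 highest miRNAs, 35 with a filter of 100 reads and 28 when the step had to be 1 log2 unit. The 50 dips numbered 99, 87 and 14 with total counts, without the 3 highest miRNAs and with a step of 1 log2 unit. With 1 library left out there were 60 to 74 peaks and 50 to 62 dips, where fewer comparisons have to hold. The test between diets called 0 with limma-voom, no robust option, DESeq2's size factors and total counts as well.

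None of the called falls named in the results changed sign under these alternatives. The 4 other scalings could hardly have turned a fall, since all of them moved the median down. Of the called rises named, 4 turned with total counts, miR-237-5p (-0.0014), miR-240-5p (-0.31, and -0.11 without the 3 highest miRNAs), miR-786-3p (-0.12) and miR-243-5p (-0.44, against 0.69 with TMM). The other turns among miRNAs named in the results were of miRNAs not called with TMM, of which let-7-5p, miR-58a-3p and miR-80-3p were called lower with total counts. With total counts, and then without the 3 highest miRNAs, let-7-5p was -0.86 and -0.67 (-0.0021 with the upper quartile), miR-84-5p -0.39 and -0.19, miR-241-5p -0.61 and -0.41, miR-80-3p -0.71 and -0.51, miR-791-3p -0.35 and -0.16, and lsy-6-3p -0.080 with total counts. miR-58a-3p was -1.06 and -0.87, -0.11 with DESeq2's size factors, -0.18 with the upper quartile, -0.041 with no filter, -0.040 with a filter of 100 reads, -0.023 with DESeq2 and -0.19 with AL left out. Without AL miR-80-3p was -0.043 and miR-39-5p 0.40, without CR miR-228-5p was 0.21, miR-124-5p 0.062 and miR-1018 0.49, and without IF miR-124-5p was 0.10 and miR-8202-5p 0.064. miR-228-5p was 0.018 with limma-voom. Leaving out 1 library gave -0.19 to 0.38 for miR-58a-3p, -0.045 to 0.67 for miR-80-3p, -0.27 to 0.20 for miR-228-5p, -0.29 to 0.15 for miR-124-5p, -0.56 to 0.48 for miR-1018, -2.24 to 0.37 for miR-39-5p and -2.79 to 0.10 for miR-8202-5p. The cause of these turns was not tested.

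Only 1 library stands for each diet and day, so the spread comes from the agreement of diets, and low miRNAs with a few reads on day 8 limit fold sizes.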

Other observations

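For 8 miRNAs, with TMM scaling, day 8 was called against both neighbouring days but in opposite directions, so that it lay between them in the fit. They were singled out after their values were seen. In the fit, 5 climbed over the 3 days. miR-231-3p had 672, 917 and 700.1 CPM on day 6, 1155, 1448 and 2687 CPM on day 8 and 2357, 3481 and 3305 CPM on day 10, in the order AL, CR, IF, with a log2 fold change of 1.14 for day 8 over day 6 and -0.83 for day 8 over day 10 (edgeR adjusted p = 0.00986 and 0.0488). As a share of all reads, miR-231-3p was lower on day 8 than on day 6 in AL and CR. miR-47-5p climbed mainly at the last step, with a log2 fold change of 1.12 over day 6 and -3.42 over day 10 (adjusted p = 0.027 and 3.25e-06). The others were miR-49-3p, miR-238-5p and the low miR-4808-3p. In CR, however, miR-49-3p was lower on day 8 than on day 6. In the fit, 3 declined over the 3 days. miR-243-5p, from a hairpin whose 3p strand is known to load into the Argonaute RDE-1, had 1429, 1267 and 1066 CPM on day 6, 1072, 498 and 499.7 CPM on day 8 and 166, 111 and 118 CPM on day 10 (log2 fold change -0.95 over day 6 and 2.33 over day 10, adjusted p = 0.0173 and 1.7e-05). Over the mean of both days its value was 0.69 and was called (adjusted p = 0.0337), and with total counts it was -0.44. The others were miR-787-3p and the low miR-251.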
